A study of Mus musculus with 8 samples.

Results

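Proliferins are secreted glycoproteins of the prolactin family, made in quantity by the trophoblast giant cells of the mouse placenta. They were first found as messages that serum and growth factors raise in cultured mouse fibroblasts. They are known to act on endothelial cells as angiogenic hormones and to bind the receptor that also takes up mannose 6-phosphate and insulin-like growth factor 2. Prl2c2 is also called proliferin 1, Prl2c3 goes under the names of proliferin 2 and 3, and Prl2c5 is proliferin 4. The 3 genes were picked by symbol from the 28712 genes that either deposited table lists, with their values in both comparisons already known, so their levels and fold changes are given below as a description and carry no test.

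The cells were 4T1, a mouse line of triple-negative breast cancer for which the labels name no engineered allele and which was kept at 1% O2. Confluent cultures received 0.5 μg/ml of sdAb#07.81, a single-domain antibody against the stress protein NUPR1, for 24 h or 48 h, or the control antibody sdAb-Con for 48 h. The antibodies were purified fusion proteins with a cell-penetrating peptide, an epitope tag and a degradation signal, so every culture described here received such a protein. The labels name 4 groups of 2 libraries, and the untreated group (Con) was not analysed here. One table compares sdAb#07.81 (48 h) with sdAb#07.81 (24 h), which asks how expression moved with time under the antibody. The other compares sdAb#07.81 (48 h) with sdAb-Con (48 h), which asks for the effect of the antibody at one time. There was no sdAb-Con at 24 h among the groups, so the first comparison holds time in culture and time under antibody together and these cannot be told apart.

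Whole reads per library were worked back from the deposited means for genes with a mean of at most 1000 normalized counts, and they summed to between 2449460 and 3021867 reads per library over 24268 genes. The 2 libraries of a group are called a and b, a being the larger by size factor, because they carry no replicate number. Nothing states that they came from separate cultures, so their spread may be technical. The 2 libraries of sdAb#07.81 (24 h) differed more from each other than those of the other groups. Among 6860 genes with a mean of at least 50, the SD of the log2 ratio of a to b was 0.355 at 24 h, against 0.253 in sdAb-Con (48 h) and 0.254 in sdAb#07.81 (48 h). The epithelial markers Epcam, Krt8, Krt18 and Cdh1 had means from 2858 to 15180 normalized counts, while Krt5 was not listed. Krt14, a basal keratin, had 710 and 616 reads at 24 h, 422 and 299 in sdAb-Con (48 h) and 224 and 239 in sdAb#07.81 (48 h).

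The proliferin genes lie on chromosome 13. The tables place Prl2c3 (ENSMUSG00000056457) at chr13:12805705-12814968 on the minus strand, Prl2c2 (ENSMUSG00000079092) at chr13:13170710-13179968 on the minus strand and Prl2c5 (ENSMUSG00000055360) at chr13:13357300-13366508 on the plus strand. The build of these coordinates is not given in the sources used here, and they differ from GRCm38, where Prl2c3 is annotated at chr13:12790816-12800079. In GENCODE M21 (GRCm38) each gene has 5 exons, with a main transcript of 857 bases for Prl2c3, 842 bases for Prl2c2 and 844 bases for Prl2c5. Prl2c3 and Prl2c2 stand 196 kb apart in that annotation, and Prl2c2 and Prl2c5 177 kb apart.

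The copies are so alike that it matters which reads can tell them apart. Over 842 aligned bases the transcripts of Prl2c3 and Prl2c2 were identical at 838 and differed at 4, 3 of them in coding sequence. Prl2c5 differed from Prl2c3 at 30 of 844 aligned bases and from Prl2c2 at 28 of 834. The 3 coding differences between Prl2c3 and Prl2c2 are shown because the assignment of a read to one of them turns on bases of this kind. Each pair of lines below gives 29 bases of transcript, 5′ to 3′, with the base that differs in capitals. Names of the changes give the Prl2c3 base, its position from 1 at the start of the Prl2c3 transcript, and the Prl2c2 base. All coordinates are GRCm38, and the exon 2 and exon 4 lines run across an exon junction.
Prl2c3, exon 1, chr13:12799985-12800013: gatgctcccttcttCgattcaaccatgct
Prl2c2, exon 1, chr13:13005299-13005327: gatgctcccttcttTgattcaaccatgct
Prl2c3, capital at chr13:12796838 in exon 2: ttcagaactgttcaAtgaatttgaaaaac
Prl2c2, capital at chr13:13002141 in exon 2: ttcagaactgttcaCtgaatttgaaaaac
Prl2c3, capital at chr13:12792171 in exon 4: ggctcacacactatGcagctcttctgaaa
Prl2c2, capital at chr13:12997464 in exon 4: ggctcacacactatTcagctcttctgaaa
These are the changes C81T, A267C and G386T. The remaining one, A18G, lies in the untranslated part of exon 1.

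Of the 708 stretches of 150 bases (the read length) in the Prl2c3 transcript, 353 (49.9%) occur letter for letter in Prl2c2. None occurs in Prl2c5 (0 of 708), and none of the 695 stretches of Prl2c5 occurs in Prl2c3 or Prl2c2. Of the stretches that Prl2c3 and Prl2c2 share, 79 occur in Gm7040 as well, an unprocessed pseudogene on the same chromosome that neither table lists. A single read from the 3′ part of the transcript could therefore come from either Prl2c3 or Prl2c2. The libraries were read pairs, and a pair can be assigned when either mate covers a base that differs, so the share of pairs that fit both copies is not the share of stretches and was not computed. How the authors' counting treated reads with several matches is not given in the sources used here. The split of reads between Prl2c2 and Prl2c3 is uncertain to an extent not measured here. No stretch of Prl2c5 is shared in this way.

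**Figure D1:**
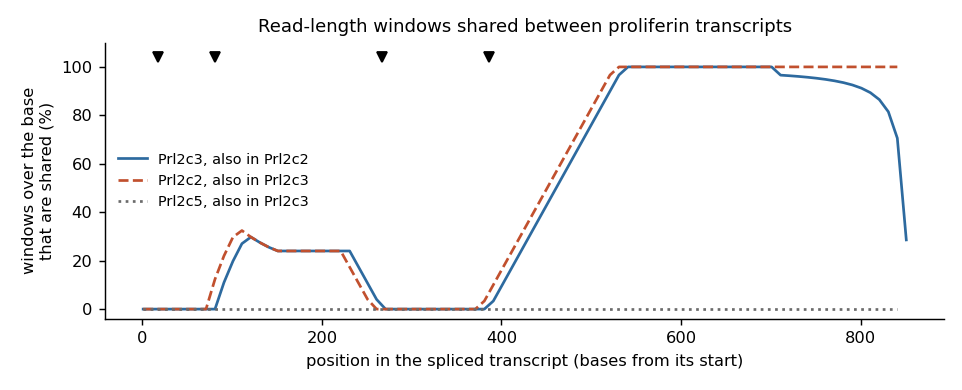
Share of all 150-base windows over a base (y axis, percent) that occur unchanged in another proliferin transcript, against the position in the spliced transcript (x axis, bases), with triangles at the 4 bases where Prl2c3 and Prl2c2 differ. All differences lie in the first 386 bases, the Prl2c3 and Prl2c2 lines reach 100% in the 3′ part, and the Prl2c5 line stays at 0.

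The region before the transcription start was also alike between the copy with the most reads and the copy with the fewest, 96.8% identical beside 96.4% for the transcripts. RefSeq promoter sequence (GRCm38.p6) was matched for 2 of the 3 members, and the 250 bases before the RefSeq start are shown 5′ to 3′ on the gene's strand, with the bases that differ between them in capitals.
Prl2c3, chr13:12800080-12800329, minus strand: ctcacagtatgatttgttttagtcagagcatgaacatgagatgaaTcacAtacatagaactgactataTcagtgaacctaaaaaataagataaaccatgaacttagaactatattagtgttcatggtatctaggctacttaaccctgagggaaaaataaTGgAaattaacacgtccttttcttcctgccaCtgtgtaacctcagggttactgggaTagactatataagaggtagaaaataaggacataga
Prl2c5, chr13:13182466-13182715, plus strand: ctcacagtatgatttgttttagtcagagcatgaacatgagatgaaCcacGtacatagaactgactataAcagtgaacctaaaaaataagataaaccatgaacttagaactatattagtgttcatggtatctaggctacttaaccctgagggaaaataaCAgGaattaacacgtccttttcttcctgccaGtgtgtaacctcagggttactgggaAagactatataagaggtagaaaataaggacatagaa
The RefSeq start of Prl2c5 is 1 base after the GENCODE start, so the last base shown for it is the first of the GENCODE transcript. The alignment held 241 identical bases, 8 that differ and 1 gap. The proliferin promoter is a textbook case of an element shared by AP-1 and the glucocorticoid receptor. Both strands were searched for letters chosen with these sequences in view. The AP-1 letters were TGANTCA, which read the same on both. Prl2c3 held 1 match, TGAATCA, beginning 209 bases before the RefSeq start, and Prl2c5 held none, its change T46C falling in that stretch (position counted from the first base shown). The letters occur in 6.75% of the 32851 promoters searched. TATATAA was found 30 bases before the RefSeq start in Prl2c3 and 31 bases before it in Prl2c5, against 3.04% of all promoters on either strand. These matches describe letters in the reference and not binding in 4T1 cells.

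Prl2c3 was the proliferin gene with the most reads. In sdAb#07.81 (24 h) library a held 148 reads and library b 35. In sdAb-Con (48 h) both libraries held 7 reads. In sdAb#07.81 (48 h) library a held 5 reads and library b 10. Both 24 h libraries were thus above all 48 h libraries, while the 2 groups at 48 h overlapped. Scaled by size factors, the mean was 84.6 ± 72.6 normalized counts (SD, n = 2) in sdAb#07.81 (24 h), 6.95 ± 0.433 in sdAb-Con (48 h) and 8.05 ± 4.06 in sdAb#07.81 (48 h). The tables were normalized separately, and the sdAb-Con libraries were put on the scale of the 24 h table through the 48 h libraries that both hold.

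Prl2c2 followed the same order at lower levels. Its reads numbered 53 and 18 in libraries a and b of sdAb#07.81 (24 h). They numbered 2 and 1 in sdAb-Con (48 h) and 1 and 5 in sdAb#07.81 (48 h). Again the lower 24 h library exceeded every 48 h library and the 48 h groups overlapped. The mean was 32.9 ± 22.3 normalized counts (SD, n = 2) in sdAb#07.81 (24 h), 1.47 ± 0.609 in sdAb-Con (48 h) and 3.25 ± 3.13 in sdAb#07.81 (48 h). Per kilobase of transcript, the level in sdAb#07.81 (24 h) was 98.7 normalized counts for Prl2c3 and 39.1 for Prl2c2.

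Prl2c5 was close to undetected. It had 0 reads in both 24 h libraries, in both sdAb-Con libraries and in library b of sdAb#07.81 (48 h), and each 0 allows up to 3 reads. Library a of sdAb#07.81 (48 h) held 3 reads (95% exact Poisson interval from 0.619 to 8.77). All groups were at or under 3 reads, so no fold is given and no difference was detectable at this depth. Prl2c1, another gene of the same subfamily that is no member here, had 1 read in total over the 6 libraries. Such intervals cover counting error only.

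**Figure D2:**
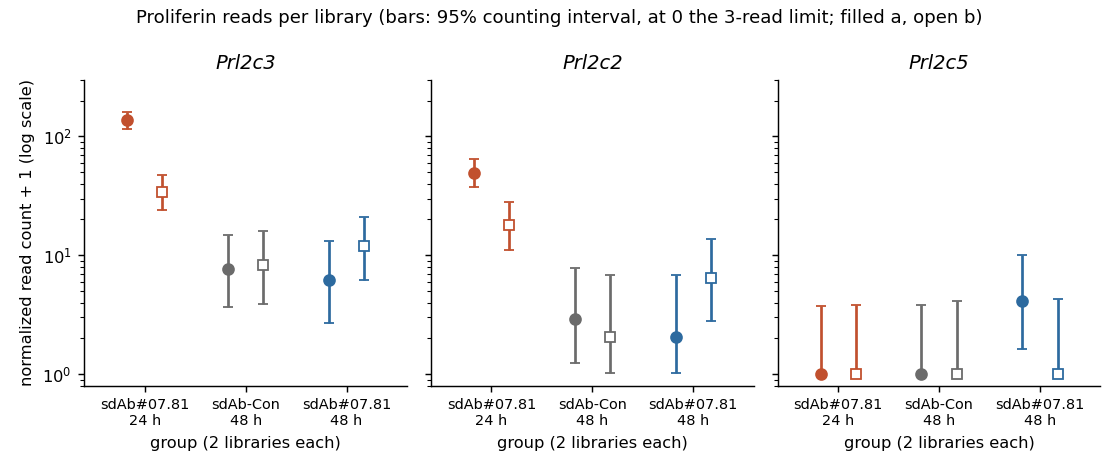
Normalized read count plus 1 (y axis, log scale) of Prl2c3, Prl2c2 and Prl2c5 in each library of the 3 groups (x axis), with 95% exact Poisson intervals for counting error (at 0 reads, a bar up to 3 reads), filled circles for library a and open squares for library b. For Prl2c3 and Prl2c2 both libraries of sdAb#07.81 (24 h) lie above the 48 h libraries, which overlap between the antibodies, and Prl2c5 is at or near 0 throughout.

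With time under sdAb#07.81, both Prl2c3 and Prl2c2 were about 10-fold lower at 48 h than at 24 h. The deposited log2 fold change of Prl2c3 was -3.40 with a standard error of 1.10 (95% interval from -5.55 to -1.24), which is 10.5-fold lower at 48 h. That of Prl2c2 was -3.36 with a standard error of 0.873 (95% interval from -5.07 to -1.65), or 10.3-fold lower. From the reads, the 24 h level over the 48 h level was 10.7 for Prl2c3 (183 reads against 15, exact counting interval from 6.33 to 19.5) and 10.4 for Prl2c2 (71 reads against 6, interval from 4.54 to 29.3). The standard errors were wide for the level of these genes. Among 1138 genes whose mean was within 1.5 times that of Prl2c3 the median standard error was 0.419, and 99.6% of them had a smaller one than Prl2c3. Both genes had an adjusted p under 0.05 in the deposited test with p-values readjusted over genes of mean 10 or more. In that comparison 22.1% of the 13968 genes tested were called as lower at 48 h, 19.8% as higher and 41.9% in either direction. Groups that did not overlap were found for 33.4% of 9711 genes of mean 10 to 1000 as lower at 48 h. Since this comparison was known when the genes were chosen, nothing is read from these calls. Prl2c5, with a mean of 0.777 normalized counts, was not tested.

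The size of the fall depended on library a of sdAb#07.81 (24 h). That library held 4.09 times the normalized count of library b for Prl2c3 and 2.85 times for Prl2c2. Without library a the log2 ratio of 48 h to 24 h was -2.05 for Prl2c3 and -2.40 for Prl2c2, and without library b it was -4.08 and -3.91. Without library b of sdAb#07.81 (48 h), which held 5 of the 6 Prl2c2 reads of that group, the ratio for Prl2c2 was -4.99, and without its library a it was -2.59. For Prl2c3 it was -4.03 and -2.95 without those libraries. The direction was the same in each case. The lowest 24 h library was 3.04 times the highest sdAb#07.81 (48 h) library for Prl2c3 and 3.13 times for Prl2c2.

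Between the antibodies at 48 h the proliferin genes were at similar low levels. The deposited log2 fold change of sdAb#07.81 over sdAb-Con was 0.21 for Prl2c3 with a standard error of 0.901 (95% interval from -1.56 to 1.97). For Prl2c2 it was 1.13 with a standard error of 1.61 (95% interval from -2.04 to 4.29). The read totals were 15 against 14 for Prl2c3, a ratio of 1.15 with an exact counting interval from 0.518 to 2.57, and 6 against 3 for Prl2c2, a ratio of 2.15 with an interval from 0.458 to 13.3. Their means of 7.27 and 2.28 normalized counts were under the minimum of 10, so none of the members entered the 13876 genes tested, of which 16.6% were called, 9.9% as higher and 6.75% as lower. Over 9821 genes of mean 10 to 1000, the groups did not overlap for 30.3% as lower and 24.7% as higher. These intervals leave room for differences of several fold either way, so similar counts do not show that the antibodies act alike on these genes. Library b of sdAb#07.81 (48 h) set the sign of both values, since without it the log2 ratio was -0.42 for Prl2c3 and -0.50 for Prl2c2.

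**Figure D3:**
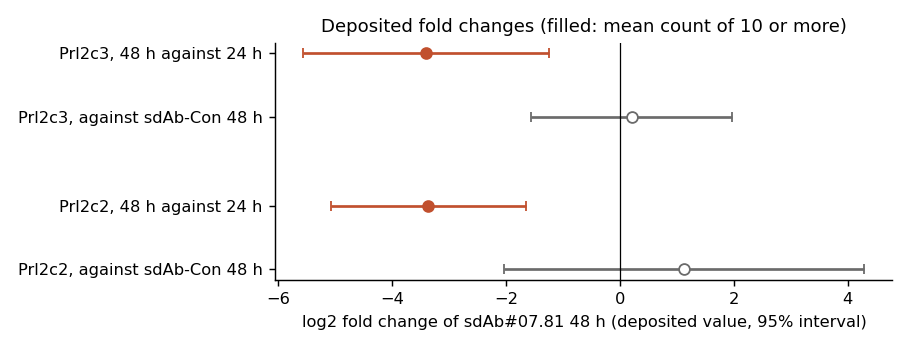
Deposited log2 fold change (x axis) of sdAb#07.81 (48 h) for Prl2c3 and Prl2c2 (rows) against sdAb#07.81 (24 h) in orange and against sdAb-Con (48 h) in grey, with 95% intervals from the deposited standard errors and filled points where the mean is 10 or more. The intervals of Prl2c3 and Prl2c2 against 24 h lie below 0 and the other 2 span 0.

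The comparisons share the sdAb#07.81 (48 h) libraries, so their difference places sdAb-Con (48 h) against sdAb#07.81 (24 h). On the log2 scale sdAb-Con (48 h) was below sdAb#07.81 (24 h) by a difference of -3.60 for Prl2c3 and -4.49 for Prl2c2, which is 12.2-fold and 22.4-fold lower. The reads gave 183 against 14 for Prl2c3, a ratio of 12.3 with an exact counting interval from 7.16 to 23.0. For Prl2c2 they gave 71 against 3, a ratio of 22.3 with an interval from 7.33 to 111. Without library a of the 24 h group the differences were -2.26 for Prl2c3 and -3.54 for Prl2c2. The order of the levels was therefore sdAb#07.81 (24 h) first, with the 48 h groups below it and not separated from each other by their spread, for Prl2c3 and Prl2c2 each taken alone. The low level at 48 h was found with sdAb-Con as well as with sdAb#07.81, and the levels at 24 h without sdAb#07.81 were not analysed here.

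The share of Prl2c2 in the reads of Prl2c2 and Prl2c3 had overlapping intervals in the 3 groups. It took 28.0% of the 254 reads at 24 h (95% exact binomial interval from 22.5 to 33.9%). In sdAb-Con (48 h) it took 17.6% of 17 reads (interval from 3.80 to 43.4%), and in sdAb#07.81 (48 h) 28.6% of 21 reads (interval from 11.3 to 52.2%). In the 24 h libraries taken singly it was 26.4% in library a and 34.0% in library b, with intervals that overlap. The reads of Prl2c1, Prl2c2, Prl2c3 and Prl2c5 summed, which a read misplaced among these 4 cannot change, gave 254 at 24 h, 17 in sdAb-Con (48 h) and 25 in sdAb#07.81 (48 h). The log2 ratio of the sums was -3.14 for 48 h against 24 h and 0.67 against sdAb-Con. On this sum the 48 h groups did not overlap, with 10.4 and 16.4 normalized counts in sdAb#07.81 (48 h) and 8.54 and 8.29 in sdAb-Con (48 h). The ratio of the reads was 1.58 with an exact counting interval from 0.819 to 3.11, and 24.7% of 9821 genes of mean 10 to 1000 lay higher in sdAb#07.81 without overlap.

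Transcripts of fibroblasts, a cell type known to make proliferins in culture, varied between the libraries as well. All 5 fibroblast markers were listed. Pdgfra was also abundant in library b of 24 h, at 1304 reads against 1042 in library a. The other 4 (Dcn, Col1a2, Thy1 and Pdgfrb) summed to 236 normalized counts in library a and 15.2 in library b of sdAb#07.81 (24 h). They summed to 198 and 174 in sdAb-Con (48 h) and to 204 and 158 in sdAb#07.81 (48 h). The sum was far lower in library b of 24 h than in any other library. Pdgfrb did not follow it, with 3 reads in library b of 24 h, 3 in library a of sdAb-Con (48 h) and 0 in library b of sdAb#07.81 (48 h). With Pdgfra, all 5 summed to 1193 and 1253 at 24 h, 802 and 799 in sdAb-Con (48 h) and 855 and 784 in sdAb#07.81 (48 h). Col1a2, a collagen chain, had 176 and 8 reads at 24 h, 148 and 116 in sdAb-Con (48 h) and 151 and 105 in sdAb#07.81 (48 h). None of the fibroblast markers other than Pdgfrb was at 0 in any library. Prl2c2 and Prl2c3 together were at 185 and 50.3 normalized counts at 24 h, 8.54 and 8.29 in sdAb-Con (48 h) and 6.22 and 16.4 in sdAb#07.81 (48 h). Library b of 24 h, lowest in the sum of the 4 markers without Pdgfra and highest in the sum of all 5, held more proliferin reads than any 48 h library. The 48 h libraries held the 4 markers at 158 to 204 normalized counts, beside 236 in library a of 24 h, with few proliferin reads. The part of such cells in the difference between the 24 h libraries was not tested, and fewer cells of a type cannot be told apart from less RNA per cell in bulk samples.

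**Figure D4:**
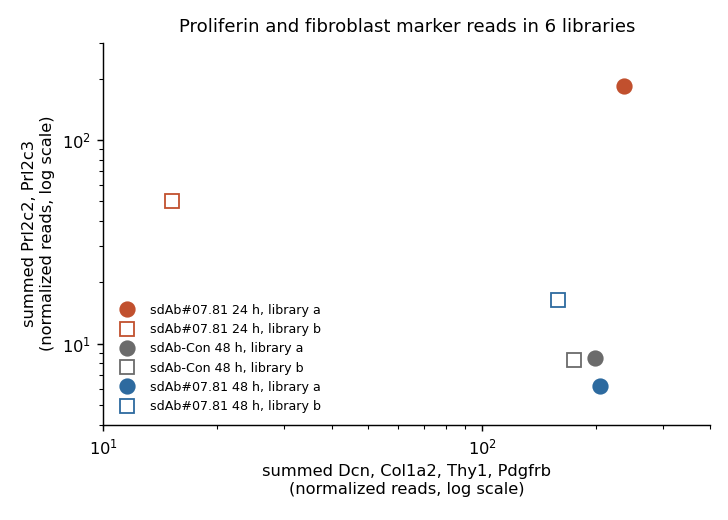
Summed normalized reads of Prl2c2 and Prl2c3 (y axis, log scale) against summed normalized reads of the fibroblast markers Dcn, Col1a2, Thy1 and Pdgfrb (x axis, log scale), 1 point per library. Library b of sdAb#07.81 (24 h) is far to the left at 15.2 marker counts, and the 48 h libraries sit below it in proliferin at 158 to 204 marker counts. Pdgfra is left out of this sum, and with it library b of sdAb#07.81 (24 h) is the highest, at 1253.

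Genes chosen as markers of the cells that make proliferins in the placenta were nearly absent. Of the 5 genes chosen as trophoblast giant cell markers, Hand1, Prl3b1 and Tpbpa were not listed, Prl3d1 had 7 reads and Ctsq 4 reads in all libraries. Endothelial markers summed to 1.90 to 13.8 normalized counts per library and immune markers to 5.69 to 11.4. The rest of the prolactin family was as scarce. Of 24 other prolactin genes 13 were not listed, and the 11 that were had 72 reads between them over the 6 libraries, with at most 6 for one gene in one library, against 295 for the proliferin genes. Prl7a1 had the most, with 3 and 5 reads at 24 h, 4 and 1 in sdAb-Con (48 h) and 1 and 6 in sdAb#07.81 (48 h). Neither Prl7a1 nor any other of these reached a mean of 10. The list of 27 family genes also held the hormone Gh and the receptors Prlr and Ghr. Ghr, the growth hormone receptor, was the one gene of these 27 tested, at a log2 fold change of 0.24 (SE 0.110) against 24 h and 0.19 (SE 0.116) against sdAb-Con, and was not called.

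The genes through which proliferins are known to be bound, induced or accompanied were described by lists. A gene was called at an adjusted p under 0.05 in the deposited test, with p-values readjusted as for the proliferin genes. Of 7 tested genes for the receptor and the mannose 6-phosphate route, 1 rose and 1 fell against 24 h, beside 41.9% of all genes called there, with a median log2 fold change of -0.07 beside -0.01 over all genes tested. Igf2r, the receptor that binds proliferin, was not called, with log2 fold changes of -0.05 (SE 0.123) and 0.17 (SE 0.109) in the comparisons with 24 h and sdAb-Con. M6pr, the smaller mannose 6-phosphate receptor, rose by 0.35 against 24 h. Nagpa, which uncovers the mannose 6-phosphate tag, fell by 0.88 against 24 h, and Gnptg, a subunit of the enzyme that adds it, fell by 0.97 against sdAb-Con as the only call of 7 tested there, beside 6.75% of all genes called as lower. The adjusted p of Nagpa in the deposited test, with p-values readjusted here (Benjamini-Hochberg), was 0.045. It is not the authors' own adjusted value. In limma on the 2 genes of this list with recovered reads, 1 was called as lower against 24 h and 1 against sdAb-Con. Of all genes, limma called 17.8% and 4.77% as lower. The call against 24 h was lost without library b of sdAb#07.81 (24 h) or without either library of sdAb#07.81 (48 h). That against sdAb-Con was kept with each library left out.

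Among 12 AP-1 and glucocorticoid receptor factors, 6 rose and 1 fell at 48 h against 24 h, where 19.8% of all genes were called as higher and 22.1% as lower, with a median of 0.47. Fosl1, a Fos family subunit of AP-1, was the one that was lower at 48 h and fell by 1.79, from 304 and 236 reads at 24 h to 73 and 64 in sdAb#07.81 (48 h), with 118 and 90 in sdAb-Con (48 h). Atf3 (3.03), Fos (1.87), Jun (1.10), Junb (0.63) and Jund (0.40) rose. In limma on the 6 of these with recovered reads, 2 were called as higher and 1 as lower, and 3 and 1 without library b of sdAb#07.81 (24 h). Of all genes in limma 18.5% were called as higher and 17.8% as lower, and 20.2% and 18.1% without that library. Against sdAb-Con, Nr3c1, the glucocorticoid receptor, rose by 0.59 and Fosl2 by 0.35, Junb fell by 0.31, and the median was -0.09 beside -0.02 over all genes tested.

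Of 11 tested glucocorticoid receptor targets, 5 rose and 4 fell against 24 h (median 0.22), and 1 rose and 2 fell against sdAb-Con (median -0.05), beside 41.9% and 16.6% of all genes called in either direction. Klf9, a glucocorticoid-induced zinc finger factor, rose in both, by 0.30 and 0.32, and Fkbp5, a chaperone partner of the receptor, fell in both, by 0.24 and 0.26. Zfp36 (1.89), Per1 (0.54) and Tsc22d3 (0.32) rose against 24 h. Errfi1 fell by 0.58 there, and Mt1 fell by 1.13 against 24 h and by 0.65 against sdAb-Con. Among growth factors and receptors that induce proliferin or share its angiogenic role, 3 of 17 rose and 4 fell against 24 h (median -0.06), and 1 of 16 rose and 2 fell against sdAb-Con (median -0.12). These counts are near the shares over all genes, 19.8% higher and 22.1% lower against 24 h and 9.9% and 6.75% against sdAb-Con. Fgfr2 fell by 0.77 against 24 h and was 0.59 higher against sdAb-Con, and Vegfa rose by 0.61 against 24 h. Egfr (0.64) and Vegfb (0.42) rose against 24 h and Tgfa (-0.41) and Areg (-0.76) fell, and against sdAb-Con Vegfb (-0.40) and Areg (-0.41) fell. Of 5 tested trophoblast and placental genes, Eomes, a trophoblast transcription factor, fell by 0.97 against 24 h and was the one call there, where 22.1% of all genes were called as lower, with a median of -0.49. Against sdAb-Con the deposited test called 0 of the 5, 1 had an unadjusted p under 0.05, limma called 0 of 4, beside 16.6% of all genes in the deposited test and 10.4% in limma. The median was -0.23, with Gata3 at 0.28 and Psg17 at 0.02. The list of secreted and growth-regulated genes, which also holds the intracellular enzyme Odc1, had 1 of 12 rising and 7 falling against 24 h (median -0.78), and 4 of 12 falling against sdAb-Con (median -0.27), beside 22.1% and 6.75% of all genes called as lower. Plau rose by 0.38 and Ctsl (-0.53), Spp1 (-0.87) and Cxcl1 (-0.69) fell against 24 h, and Mmp9 (-1.37), Mmp3 (-0.78), Odc1 (-0.65) and Lcn2 (-0.32) fell against sdAb-Con. In limma on 7 of the list, 5 were called as lower against 24 h, and 4 as lower and 2 as higher without library b of sdAb#07.81 (24 h), where limma called 17.8% of all genes as lower with that library and 18.1% without it. Mmp3, a matrix metalloprotease, fell by 3.04 and Odc1, the first enzyme of polyamine synthesis, by 1.89 against 24 h.

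In limma on recovered reads, some calls in these lists moved with single libraries. Of 13 growth factors and receptors, 2 were called as higher and 2 as lower against 24 h. These became 3 and 4 without library a and 3 and 2 without library b of sdAb#07.81 (24 h), and 0 and 2 without library a and 1 and 2 without library b of sdAb#07.81 (48 h). Against sdAb-Con 1 of the 13 was called as lower, beside 4.77% of all genes, and 4 had an unadjusted p under 0.05, and the call was lost whichever of the 4 libraries was left out. Of 4 trophoblast and placental genes 1 was called as lower against 24 h. Without library b of sdAb#07.81 (48 h) it was 0, and without library a of sdAb#07.81 (24 h) 2 were lower and 1 higher. Of 6 glucocorticoid receptor targets, 3 were called as higher and 2 as lower against 24 h, and 2 and 2 without library b of sdAb#07.81 (24 h). Against sdAb-Con 1 of these was lower. This became 1 higher and 0 lower without library a of sdAb-Con (48 h), 2 lower without library b of either group, and 0 without library a of sdAb#07.81 (48 h). Of the AP-1 and glucocorticoid receptor factors limma called 0 of 6 against sdAb-Con, where 1 had an unadjusted p under 0.05, and 1 as lower without library b of sdAb-Con (48 h). Of the secreted and growth-regulated genes it called 1 of 5 as lower against sdAb-Con, also with each library left out, and 6 of 7 against 24 h without library a of sdAb#07.81 (24 h). Over all genes and these settings limma called 12.0 to 20.2% as higher and 12.3 to 18.1% as lower against 24 h, and 1.23 to 5.65% and 0.397 to 6.39% against sdAb-Con.

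The genes with a mean of at least 100 in both tables whose pair of log2 fold changes lay nearest to that of Prl2c3 were Txnip, S100a4, Neat1, Sfpq and Mmp3, out of 10112. The measure was the straight-line distance over the 2 comparisons, from 0.250 for Txnip to 1.05 for Mmp3, and the comparisons share the 48 h libraries. Txnip, which binds thioredoxin, had log2 fold changes of -3.64 (SE 0.127) against 24 h and 0.25 (SE 0.435) against sdAb-Con, with a smaller error against 24 h than Prl2c3. S100a4, a calcium-binding protein, was at -2.53 and -0.13. Neat1, a nuclear RNA, was at -2.46 and -0.00377, and Sfpq, a splicing factor, at -2.42 and 0.39. Mmp3 was at -3.04 and -0.78, and its 24 h libraries stood in the opposite order to those of Prl2c3, with 1119 reads in library a and 2287 in library b. Nupr1, whose protein the antibody binds, was at 0.66 (SE 0.128) and -0.17 (SE 0.105).

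**Figure D5:**
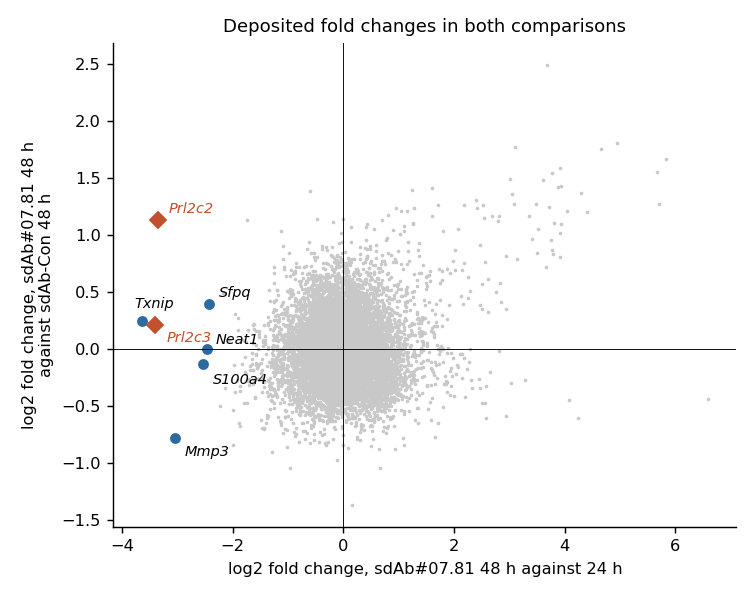
Deposited log2 fold change against sdAb#07.81 (24 h) (x axis) and against sdAb-Con (48 h) (y axis) for genes with a mean of at least 100 in both tables (grey), the 5 genes nearest to Prl2c3 (blue) and Prl2c3 and Prl2c2 (orange diamonds). Both proliferin genes lie far to the left, at -3.40 and -3.36, Prl2c3 near the horizontal axis and Prl2c2 at 1.13 above it, and both axes share the 48 h libraries.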

How the data were processed

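Total RNA of 4T1 cells was sequenced as 150-base read pairs. The submitters' processing notes name cutadapt 1.9.1, HISAT2 2.0.1, HTSeq 0.6.1 and GRCh38.p14, a human build, although the gene identifiers are of mouse. The authors deposited 2 tables of their own comparisons, each with a mean normalized count over 4 libraries (a signal that is never negative), a log2 fold change with its standard error and a p-value per gene. These log2 fold changes and p-values are the authors' values. P-values were readjusted (Benjamini-Hochberg) over genes with a mean of at least 10. The test behind them is not given in the sources used here.

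Each deposited mean is a sum of whole reads times library weights, so reads per library (or read pairs) were solved for genes with a mean of at most 1000. All 24844 such genes had 1 solution, and the 48 h reads agreed between the tables for 21232 of 21232 genes found in both. Genes that a table does not list were taken as 0 there, and all 1375 and 1661 such genes had 0 reads in both 48 h libraries. The number of reads sets the precision, and depth beyond these genes is unknown. limma 3.58.1 (R 4.3.3) with a mean trend on log2(normalized reads + 1) served as an alternative. Both steps were tested on simulated data. Python 3.11.15 and scipy 1.17.1 gave the intervals. Groups came from the labels. The tables give no replicate number for a library.

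The members, the 7 gene lists and the markers were chosen with earlier results of these data known. Named from each list were the called genes, at most the 6 of highest mean, or the 2 of highest mean where none was called, and the 5 genes of mean 100 or more nearest to Prl2c3 in both log2 fold changes. Sequences are from GENCODE M21 and RefSeq.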

Additional observations from a re-analysis of the deposited data

How the results depend on the processing

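Leaving out 1 library at a time, the log2 ratio of 48 h to 24 h ran from -4.99 to -2.40 for Prl2c2 and from -4.08 to -2.05 for Prl2c3, that of sdAb#07.81 to sdAb-Con from -0.50 to 1.90 and from -0.42 to 0.65, and that of sdAb-Con to 24 h from -5.05 to -3.54 and from -4.29 to -2.26. Every other setting tried for these genes (recovered reads, scaling to the total of recovered reads, a pseudocount of 1, summed copies, and removal of the trend with transcript length) moved a value by less than the spread between libraries. The genes called numbered 5846 against 24 h and 2310 against sdAb-Con. With a minimum absolute log2 change of 1 the numbers were 1466 and 154. limma, on 9711 and 9821 genes, called 3523 and 1023, and from 2397 to 3713 and from 160 to 1162 with 1 library left out, where the lone library is assumed to vary like the others. The value of 160 came without library a of sdAb#07.81 (48 h), and the cause was not tested. Added after seeing the data were, for the 2 deposited comparisons, the ratio of recovered reads and the scaling to their total, for sdAb-Con against 24 h the leaving out of libraries, and limma on fewer libraries. No paired analysis was possible because the recovered libraries carry no replicate number. Groups of 2 libraries and fewer than 20 reads per 48 h library limit what can be seen for the proliferin genes.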

Other observations

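Among 6860 genes with a mean of at least 50, 6 were at least 4-fold higher in library a than in library b of sdAb#07.81 (24 h) and 1 was lower, a list chosen after its values were seen. Col3a1 had 159 and 0 reads, Thbs2 116 and 0, H19 325 and 13, Col1a2 176 and 8, Col1a1 214 and 40 and Gm6254 170 and 38, while Tnfsf10 had 5 and 30. Of 3636 genes with a mean from 10 to 100, 1.13% had a ratio of library a to library b at least as high as that of Prl2c3 and 2.23% at least as high as that of Prl2c2. In the sdAb-Con (48 h) pair and the sdAb#07.81 (48 h) pair the 1 gene at least 4-fold apart was Gm10800, with 100 and 12 and with 532 and 49 reads.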
